A study of Homo sapiens with 9 samples.

Results

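The catenins and classical cadherins are the proteins that join cells at adherens junctions, and 10 of their genes were followed in A549, a human lung cancer cell line, after depletion of Cyclin K. The rows of the FPKM files whose symbol was CTNNB1, JUP, CTNNA1, CTNNA2, CTNNAL1, CTNND1, CDH1, CDH2, CDH3 or CDH4 were taken, and each of the 10 genes was on 1 row, out of 31080 reference genes or joined genes and 56252 features in all. Cells carried either a scrambled siRNA, siCyclin K#1 or siCyclin K#2, a pair of siRNAs to different sites of the Cyclin K mRNA, and total RNA was taken 48 h after transfection. There were 3 libraries in each group, 9 in all, and the design text calls them independent samples without saying whether each was a separate transfection, so that p-values measure the spread between these libraries. FPKM, the unit of every level below, divides the fragments of a gene by its length and by the sequencing of the library as a whole, and levels of different genes can therefore be set side by side. The steps between low FPKM values gave a depth of 31330450 to 33768750 reads per library. In bulk RNA, fewer cells of a type and less RNA per cell cannot be told apart.

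Classical cadherins are transmembrane receptors that bind the same cadherin on a neighbouring cell. Inside the cell, p120-catenin binds the part of the tail near the membrane and holds the cadherin at the surface, while β-catenin or its close relative plakoglobin binds the end of the tail and recruits α-catenin, which connects the complex to actin. β-catenin that is not held at the membrane is degraded, or enters the nucleus and acts with TCF and LEF factors as the transcriptional arm of the Wnt pathway.

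CCNK, which encodes Cyclin K, a cyclin that activates CDK12 and CDK13, was measured first as a check of the groups. Its FPKM was 6.90, 7.06 and 7.10 in the scrambled libraries, 0.891, 0.816 and 0.720 under siCyclin K#1, and 0.809, 0.920 and 0.802 under siCyclin K#2. Every siCyclin K library was below the lowest scrambled one, and the siRNAs left 11.5% and 12.0% of the scrambled mean. The siCyclin K target sites, read from the coding sequence of CCNK in GENCODE 29, are shown because the siRNAs gave different values for several members below. Capitals mark the bases that pair with bases 2 to 8 of the guide strand, the seed, if the strand complementary to the site is the guide.
siCyclin K#1 site: aagcaactcaaagGTGATAAa
siCyclin K#2 site: caagtttgattTACAGGTa

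The seed match of siCyclin K#1, GTGATAA, was looked for on the sense strand of the longest 3′ UTR of each member and of the coding sequence of the same transcript. Other transcripts of a gene were not searched, and the one taken for CTNNA2 had 1614 coding bases, beside 2526 for CTNNA1. Of 13092 tested genes with a 3′ UTR, 10.4% held the match there and 6.17% held it in the coding sequence. It was in the 3′ UTR of 0 of the 10 members, and in the coding sequences of CTNNAL1 and CTNND1, at coding bases 421 and 674. These 2 stretches are shown with 10 bases on each side, and the capitals mark the match. A match is a description of the sequence only.
CTNNAL1 coding: caaaacaggaGTGATAAaggctgcaag
CTNND1 coding: ccaggtggcaGTGATAActatggcagt

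With both siRNAs together, CTNNA2, CTNND1, CDH2 and CDH4 rose in Cyclin K depleted cells, and CTNNB1, JUP, CTNNA1, CTNNAL1 and CDH1 did not pass the test. These 4 of the 9 tested members passed limma at an adjusted p under 0.05 over 21048 genes (Benjamini-Hochberg), as did 28.6% of all tested genes (17.0% higher and 11.5% lower). The same 4 members had all 6 siCyclin K libraries above all 3 scrambled libraries, where 32.6% of tested genes had groups that did not overlap in either direction. Against the same scrambled libraries, siCyclin K#1 by itself gave 6 members higher and 1 lower (44.8% of tested genes passed, 26.8% higher and 18.1% lower), and siCyclin K#2 by itself gave 5 members higher (34.9% of tested genes passed, 19.8% higher and 15.2% lower). All 3 siCyclin K#1 libraries were apart from the 3 scrambled ones for 7 members, and all 3 siCyclin K#2 libraries for 5 tested members, beside 53.5% and 46.8% of tested genes. The split by direction depended on the scaling: for siCyclin K#1, 5635 genes were higher and 3800 lower as deposited, but 4663 and 4660 after median-ratio rescaling, when 6 members were higher and 2 lower. CTNNA2 was the member that also passed the thresholds of the study, a fold change over 3 with an unadjusted p under 0.01, with both siRNAs (2.29% of tested genes), siCyclin K#1 (4.67%) and siCyclin K#2 (1.94%). With a pseudocount of 0.5 the log2 fold change of CTNNA2 was over that fold under siCyclin K#1 (1.85) but not over both siRNAs (1.41) or under siCyclin K#2 (0.97), and with 1 it was at most 1.34. Under siCyclin K#2 it was also below that fold without scrambled library 2 (1.55). By mean FPKM, CDH4 was 3.29-fold of scrambled under siCyclin K#1 and 3.22-fold under siCyclin K#2. On the log2 scale CDH4, at 1.55 to 1.56, was just under a fold change of 3. It was over it in all 3 comparisons without scrambled library 1 (1.62 to 1.63), over both siRNAs and under siCyclin K#1 without siCyclin K#1 library 1 (1.68 and 1.86), and over both siRNAs and under siCyclin K#2 without siCyclin K#2 library 2 (1.63 and 1.74). JUP under siCyclin K#1, at 1.53, was over it without scrambled library 2 (1.67) or 3 (1.69). The median log2 fold change of the 9 tested members was 0.79 with both siRNAs, 1.00 with siCyclin K#1 and 0.30 with siCyclin K#2, beside 0.062, 0.10 and 0.014 over all tested genes. Median-ratio rescaling took the all-gene median of siCyclin K#1 from 0.1019 to 0.0009, and quantile normalization took it to -0.0188. CDH3, the tenth member, was under the filter of an FPKM of 0.1 in 3 libraries and was not tested. Fold changes are on the log2(FPKM + 0.1) scale, which understates those of low genes.

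**Figure D1:**
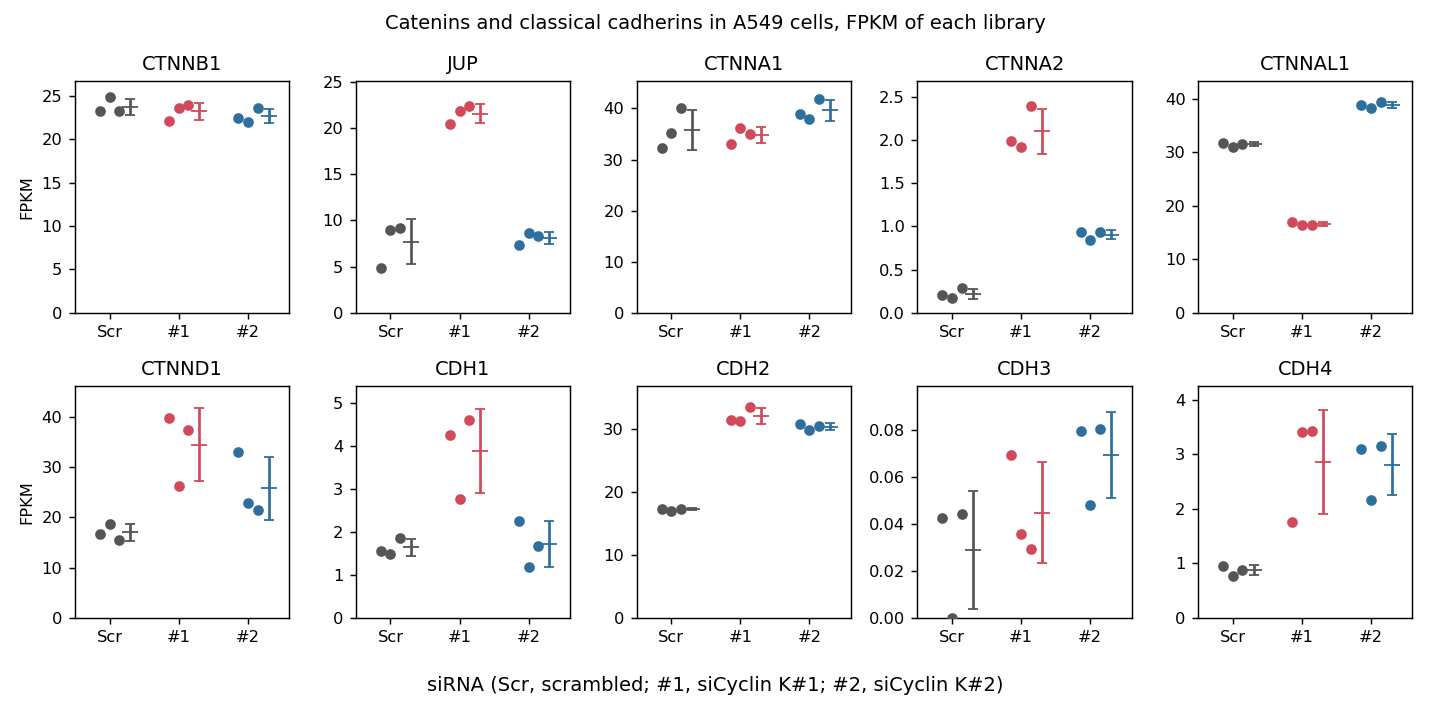
FPKM (vertical axes, linear, each starting at 0) of the 10 catenin and classical cadherin genes in A549 cells with scrambled siRNA (grey), siCyclin K#1 (red) and siCyclin K#2 (blue); each point is a library and the bar beside it is the mean ± SD of 3 libraries. CTNNB1 lies between 22.0 and 24.8 in every library, whereas CDH2 moves from 17.0 to 17.3 with scrambled siRNA up to 29.8 to 33.5 with the siCyclin K siRNAs, and CTNNAL1 lies below scrambled with siCyclin K#1 and above it with siCyclin K#2.

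CTNNB1 encodes β-catenin and lies on chromosome 3 (GRCh38, as for all positions here), plus strand, from 41194741 to 41260096. Its mRNA was at 23.2, 24.8 and 23.2 FPKM in the scrambled libraries, at 22.1, 23.6 and 23.9 under siCyclin K#1, and at 22.4, 22.0 and 23.6 under siCyclin K#2. The 3 groups overlapped, and the highest and lowest of the 9 libraries were a scrambled and a siCyclin K#2 library. The log2 fold change was -0.05 with both siRNAs (95% interval -0.17 to 0.073, adjusted p = 0.54, limma), -0.035 with siCyclin K#1 (-0.14 to 0.072, adjusted p = 0.60, limma) and -0.066 with siCyclin K#2 (-0.17 to 0.041, adjusted p = 0.33, limma). These intervals bound the difference and do not show that the levels are equal. Leaving out single libraries gave -0.066 to -0.019 with both siRNAs, -0.056 to -0.0001 with siCyclin K#1 and -0.095 to -0.034 with siCyclin K#2. After median-ratio rescaling, the value for siCyclin K#1 was -0.15 and passed the test (adjusted p = 0.027, limma).

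JUP encodes plakoglobin, also called γ-catenin, the armadillo protein closest to β-catenin and a component of both adherens junctions and desmosomes. It lies on the minus strand of chromosome 17 from 41754604 to 41786931. The scrambled libraries gave 4.85, 8.98 and 9.17 FPKM, those with siCyclin K#1 gave 20.4, 21.8 and 22.4, and those with siCyclin K#2 gave 7.33, 8.58 and 8.35. Scrambled library 1 stood below the other 8, all siCyclin K#1 libraries were above all others, and the siCyclin K#2 values fell within the scrambled range. JUP rose with siCyclin K#1, by 1.53 on the log2 scale (SE 0.21, adjusted p = 0.00039, limma), which was 2.81-fold of the scrambled mean. With siCyclin K#2 the log2 fold change was 0.13 (95% interval -0.36 to 0.62, adjusted p = 0.70, limma), and it was -0.17 without scrambled library 1. The direct difference between the siRNAs was 1.40 (SE 0.21, adjusted p = 0.0013, limma).

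The share of plakoglobin mRNA in the sum of CTNNB1 and JUP was 24.1% ± 5.94 (SD, n = 3) with scrambled siRNA, 48.2% ± 0.238 (SD, n = 3) under siCyclin K#1 and 26.3% ± 1.69 (SD, n = 3) under siCyclin K#2. The ratio of CTNNB1 to JUP within a library was 2.53 to 4.79 with scrambled siRNA, 1.06 to 1.08 under siCyclin K#1 and 2.57 to 3.05 under siCyclin K#2. β-catenin and plakoglobin mRNAs were thus near equal in the siCyclin K#1 libraries, whereas the ranges of the other 2 groups overlapped. Over both siRNAs the log2 ratio differed from scrambled by -0.88 (exact two-sided permutation test, p = 0.119, where 6 libraries against 3 allow no p under 0.0119).

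CTNNA1 encodes αE-catenin, the α-catenin of epithelia, on the plus strand of chromosome 5 from 138610967 to 138935034. Its FPKM was 32.3, 35.1 and 40.1 in the scrambled libraries, 33.1, 36.2 and 35.0 under siCyclin K#1, and 39.0, 38.0 and 41.9 under siCyclin K#2. The scrambled range held all siCyclin K#1 values and part of the siCyclin K#2 values. The log2 fold change was 0.057 with both siRNAs (95% interval -0.15 to 0.26, adjusted p = 0.69, limma) and changed sign to -0.027 after median-ratio rescaling. It was -0.038 with siCyclin K#1 (adjusted p = 0.73, limma) and 0.15 with siCyclin K#2 (adjusted p = 0.18, limma). Without scrambled library 3 the value for siCyclin K#2 was 0.24 and passed the test (adjusted p = 0.023, limma), and that for siCyclin K#1 was 0.046.

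CTNNA2 encodes αN-catenin, the neural α-catenin, and had the highest log2 fold change of the tested members with a pseudocount of 0.1. The order was not stable. Under siCyclin K#2, CDH4 was at 1.74 and CTNNA2 at 1.71 without siCyclin K#2 library 2, and both were at 1.63 without scrambled library 1. With a pseudocount of 1, CTNNA2 gave 0.99 and CDH4 1.01 over both siRNAs, CTNNA2 1.34 and JUP 1.42 under siCyclin K#1, and CTNNA2 0.64 and CDH4 1.01 under siCyclin K#2. It lies on the plus strand of chromosome 2 from 79185231 to 80648861 and was counted in a feature that joined it with AC011754.1, which overlaps it on the same strand, so that the levels of the 2 genes cannot be told apart. The scrambled libraries gave 0.204, 0.172 and 0.283 FPKM, those with siCyclin K#1 gave 1.99, 1.92 and 2.40, and those with siCyclin K#2 gave 0.937, 0.842 and 0.934. The 3 groups were apart from each other, in the order scrambled, siCyclin K#2, siCyclin K#1. The group means were 9.55-fold of scrambled with siCyclin K#1 and 4.11-fold with siCyclin K#2. The log2 fold change was 2.79 with siCyclin K#1 (SE 0.16, adjusted p = 2e-06, limma), 1.66 with siCyclin K#2 (SE 0.16, adjusted p = 6.1e-05, limma) and 2.23 with both (SE 0.35, adjusted p = 0.0011, limma).

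Even so, the feature that joined CTNNA2 with AC011754.1 stayed a small part of the α-catenins. Its share in the sum of CTNNA1 and CTNNA2 was 0.607% ± 0.108 (SD, n = 3) with scrambled siRNA, 5.71% ± 0.698 (SD, n = 3) under siCyclin K#1 and 2.23% ± 0.10 (SD, n = 3) under siCyclin K#2. The log2 ratio of CTNNA2 to CTNNA1 was 2.17 higher with both siRNAs than with scrambled siRNA, and all 6 libraries were above the 3 scrambled ones (p = 0.0119 in an exact two-sided permutation test, as low as 6 against 3 can go). The sum itself was 36.0 ± 4.0, 36.8 ± 1.60 and 40.6 ± 2.08 FPKM (SD, n = 3) with scrambled siRNA, siCyclin K#1 and siCyclin K#2.

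**Figure D2:**
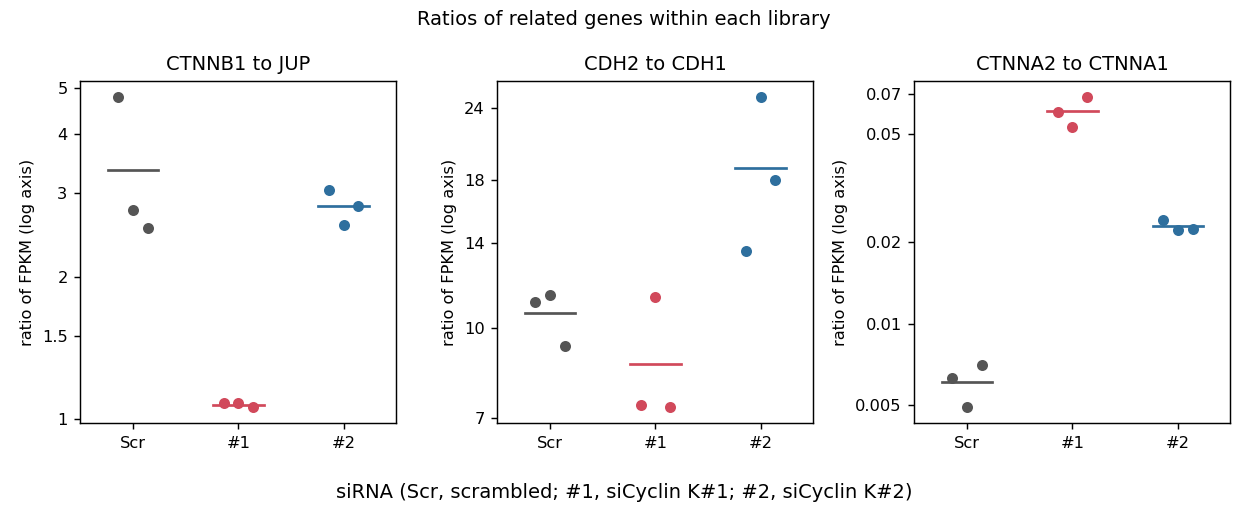
Ratio of FPKM within each library (vertical axes, log scale) for CTNNB1 to JUP, CDH2 to CDH1 and CTNNA2 to CTNNA1 with scrambled siRNA (grey), siCyclin K#1 (red) and siCyclin K#2 (blue); points are libraries and lines are means of 3. The CTNNB1 to JUP ratio lies at 1.06 to 1.08 with siCyclin K#1, the CDH2 to CDH1 ratio is highest with siCyclin K#2, and the CTNNA2 to CTNNA1 ratio of every siCyclin K library is above the scrambled ones.

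CTNNAL1 encodes α-catulin, a relative of α-catenin and vinculin, on the minus strand of chromosome 9 from 108942569 to 109013529. It was at 31.7, 31.0 and 31.6 FPKM in the scrambled libraries, at 16.9, 16.4 and 16.4 under siCyclin K#1, and at 38.8, 38.3 and 39.3 under siCyclin K#2. Each group spanned about 1 FPKM or less, and none overlapped another. CTNNAL1 fell by 0.92 on the log2 scale with siCyclin K#1 (SE 0.030, adjusted p = 7.9e-08, limma) and rose by 0.30 with siCyclin K#2 (SE 0.030, adjusted p = 7.7e-05, limma). The mean was 52.6% of scrambled with the first and 123% with the second. Of all tested genes, 1.82% passed the test with both siRNAs in opposite directions, and CTNNAL1 was the member among them. In the fit of both siRNAs together it had a log2 fold change of -0.31 (95% interval -1.08 to 0.46, adjusted p = 0.55, limma), a mean of opposite values. That value was -0.44 to -0.18 when single libraries were left out.

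CTNND1 encodes p120-catenin, the catenin of the membrane-near part of the cadherin tail, on the plus strand of chromosome 11 from 57753243 to 57819546. Its FPKM was 16.8, 18.7 and 15.5 in the scrambled libraries, 39.9, 26.2 and 37.4 under siCyclin K#1, and 33.0, 22.9 and 21.4 under siCyclin K#2. All 6 siCyclin K libraries were above the scrambled ones, the spread within either siRNA was wide, and the siRNAs overlapped. CTNND1 rose by 1.00 on the log2 scale with siCyclin K#1 (SE 0.19, adjusted p = 0.0028, limma), by 0.58 with siCyclin K#2 (SE 0.19, adjusted p = 0.049, limma) and by 0.79 with both (SE 0.20, adjusted p = 0.015, limma). The call with both siRNAs was lost without scrambled library 1 (adjusted p = 0.054, limma) or 3 (adjusted p = 0.066, limma). That with siCyclin K#2 was lost in limma under median-ratio rescaling (adjusted p = 0.067), quantile normalization (0.071), a pseudocount of 1 (0.051), no filter (0.073) and no trend (0.079), and without scrambled library 1, 2 or 3, siCyclin K#1 library 3, or siCyclin K#2 library 1 or 2, with an adjusted p from 0.060 to 0.14 and a log2 fold change of 0.39 at the lowest. TMX2-CTNND1, a readthrough gene, and AP001931.1 share exons with CTNND1 on its strand. They had no value of their own, so that their reads may have been counted with CTNND1.

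CDH2 encodes N-cadherin, the classical cadherin of neural and mesenchymal cells, on the minus strand of chromosome 18 from 27950966 to 28177446. Its mRNA was at 17.3, 17.0 and 17.3 FPKM in the scrambled libraries, at 31.3, 31.2 and 33.5 under siCyclin K#1, and at 30.8, 29.8 and 30.4 under siCyclin K#2. The scrambled libraries differed by less than 1 FPKM and all 6 siCyclin K libraries were far above them. CDH2 rose by 0.89 with siCyclin K#1 (SE 0.036, adjusted p = 2.6e-07, limma), by 0.81 with siCyclin K#2 (SE 0.036, adjusted p = 8.7e-07, limma) and by 0.85 with both (SE 0.053, adjusted p = 4.8e-06, limma), on the log2 scale. The siRNAs differed from each other by 0.077 (95% interval -0.0059 to 0.16, adjusted p = 0.16, limma), and by 0.13 after quantile normalization (adjusted p = 0.026, limma).

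CDH4 encodes R-cadherin, first known from the retina, on the plus strand of chromosome 20 from 61252426 to 61940617. It gave 0.957, 0.773 and 0.886 FPKM in the scrambled libraries, 1.76, 3.41 and 3.42 under siCyclin K#1, and 3.10, 2.16 and 3.16 under siCyclin K#2. These are low levels, from 181 to 829 reads, but all 6 siCyclin K libraries were above the scrambled ones. CDH4 rose by 1.55 with siCyclin K#1 (SE 0.26, adjusted p = 0.0011, limma), by 1.56 with siCyclin K#2 (SE 0.26, adjusted p = 0.0015, limma) and by 1.56 with both (SE 0.22, adjusted p = 0.00055, limma), on the log2 scale. The means were 3.29-fold and 3.22-fold of scrambled, and the siRNAs overlapped, with a difference of -0.011 (95% interval -0.60 to 0.58, adjusted p = 0.99, limma) that changed sign when any 1 of 3 libraries was left out.

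CDH1 encodes E-cadherin, the cadherin that holds epithelial cells together and a known suppressor of invasion, on the plus strand of chromosome 16 from 68737225 to 68835548. Its FPKM was 1.56, 1.49 and 1.86 in the scrambled libraries, 4.25, 2.77 and 4.60 under siCyclin K#1, and 2.26, 1.19 and 1.68 under siCyclin K#2. All siCyclin K#1 libraries were above all others, while the siCyclin K#2 libraries lay on both sides of the scrambled range. CDH1 rose by 1.17 on the log2 scale with siCyclin K#1 (SE 0.25, adjusted p = 0.0043, limma), 2.37-fold of the scrambled mean. Under siCyclin K#2 the log2 fold change of CDH1 was 0.022 (95% interval -0.54 to 0.59, adjusted p = 0.96, limma), which was -0.023 after median-ratio rescaling and -0.047 after quantile normalization. The direct difference between the siRNAs was 1.15 (SE 0.25, adjusted p = 0.0079, limma).

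CDH3, which encodes P-cadherin, is the neighbour of CDH1 on the same strand of chromosome 16, from 68636189 to 68722616, and was close to absent. It was listed at 0.0427, 0 and 0.0445 FPKM in the scrambled libraries, 0.0694, 0.0358 and 0.0292 under siCyclin K#1, and 0.0798, 0.0483 and 0.0805 under siCyclin K#2. These correspond to 6 to 16 reads, and 0 in scrambled library 2. All siCyclin K#2 libraries were above the scrambled range and the siCyclin K#1 libraries overlapped it. Over both siRNAs the exact two-sided permutation test gave p = 0.143, and 3 libraries against 3 cannot give a p under 0.1.

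**Figure D3:**
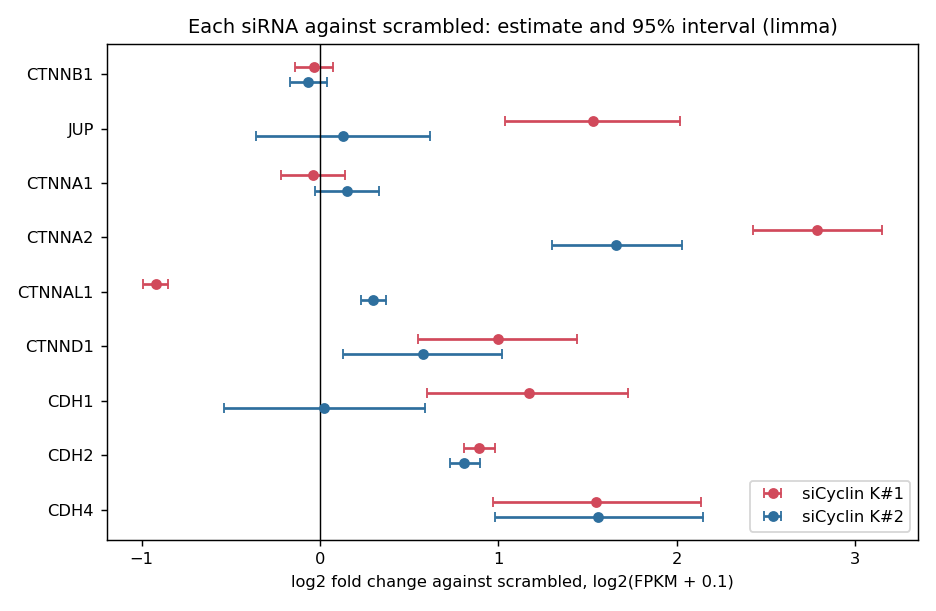
Log2 fold change of the 9 tested members with siCyclin K#1 (red) and siCyclin K#2 (blue) against the same 3 scrambled libraries, on the log2(FPKM + 0.1) scale, from limma; points are estimates and bars are 95% intervals. The intervals of CDH2 and CDH4 lie to the right of 0 at nearly the same place with either siRNA. Those of JUP and CDH1 do so with siCyclin K#1 but include 0 with siCyclin K#2, and the CTNNAL1 intervals lie on opposite sides of 0.

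The sum of the 4 classical cadherin mRNAs was 19.7 ± 0.406 FPKM (SD, n = 3) with scrambled siRNA, 38.8 ± 2.39 under siCyclin K#1 and 34.9 ± 1.53 under siCyclin K#2. N-cadherin made up 87.2% ± 1.06, 82.6% ± 1.70 and 86.9% ± 2.52 of it (SD, n = 3). Most of the mRNA of these 4 cadherins was therefore that of CDH2 in every group. The CDH2 to CDH1 ratio was 10.6 ± 1.12 with scrambled siRNA, 8.64 ± 2.27 under siCyclin K#1 and 18.9 ± 5.81 under siCyclin K#2 (SD, n = 3). With siCyclin K#2 every library was above the scrambled range, and with siCyclin K#1 the ranges overlapped. Over both siRNAs the log2 ratio differed by 0.26 (exact two-sided permutation test, p = 0.536, with 0.0119 the smallest possible). This difference was 0.067 to 0.41 when single libraries were left out.

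By level, the scrambled cells held the members in the order CTNNA1 at 35.8 ± 3.96 FPKM, CTNNAL1 at 31.5 ± 0.387, CTNNB1 at 23.7 ± 0.915, CDH2 at 17.2 ± 0.154, CTNND1 at 17.0 ± 1.59, JUP at 7.67 ± 2.44, CDH1 at 1.64 ± 0.193, CDH4 at 0.872 ± 0.0929, CTNNA2 at 0.220 ± 0.0572 and CDH3 at 0.0291 ± 0.0252 (SD, n = 3). Of the neighbours in this order, CDH2 and CTNND1 had overlapping ranges. With siCyclin K#1 the order began CTNNA1, CTNND1 and CDH2, whose neighbouring ranges overlapped, and CTNNAL1 came sixth, below CTNNB1 and JUP. With siCyclin K#2 it began CTNNA1 and CTNNAL1, which overlapped, followed by CDH2, CTNND1 and CTNNB1, of which each overlapped the next. CDH4 and CDH1 overlapped as neighbours with both siRNAs, and in no group did CDH3 overlap the member above it.

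Members also differed in their spread among libraries of 1 group. The coefficient of variation with scrambled siRNA was 0.896% for CDH2, 1.23% for CTNNAL1 and 3.86% for CTNNB1, but 31.9% for JUP. With siCyclin K#1 it was 21.2% for CTNND1, 25.0% for CDH1 and 33.5% for CDH4, and with siCyclin K#2 it was 24.5%, 31.4% and 20.0%. CTNND1 and CDH1 shared their lowest siCyclin K#1 library, number 2, and their highest siCyclin K#2 library, number 1.

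Tested directly, siCyclin K#1 against siCyclin K#2 gave CTNNA2, JUP and CDH1 higher and CTNNAL1 lower, 4 of the 9 tested members, beside 29.4% of all tested genes (17.1% higher and 12.3% lower). After median-ratio rescaling the 3600 higher and 2591 lower genes became 2857 and 3211, and the members 3 higher and 2 lower. Their siRNA groups did not overlap, and neither did those of CTNNA1 and CDH2, as for 42.7% of tested genes. Of all tested genes 1.53% differed between the siRNAs by a fold change over 3 with an unadjusted p under 0.01, and the largest member difference, that of JUP, was smaller than that. The difference for CTNNA2 was 1.13 on the log2 scale (SE 0.16, adjusted p = 0.00085, limma) and that for CTNNAL1 was -1.22 (SE 0.030, adjusted p = 1.2e-07, limma). For CTNND1 it was 0.42 (95% interval -0.023 to 0.87, adjusted p = 0.15, limma), which passed the test without siCyclin K#1 library 2 (0.61, adjusted p = 0.040, limma) or without siCyclin K#2 library 1 (0.61, adjusted p = 0.036, limma). CTNNA1 stood at -0.19 (adjusted p = 0.11, limma), and passed the test after median-ratio rescaling (-0.26, adjusted p = 0.034, limma) and without scrambled library 3 (-0.19, adjusted p = 0.038, limma). CTNNB1 differed by 0.032 (adjusted p = 0.67, limma), or -0.040 after median-ratio rescaling.

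The other genes of the junction were taken from 6 lists of known partners, whose counts below have the shares of all tested genes given above for comparison. A list of other catenin-like genes held armadillo proteins and CTNNBIP1, which has no armadillo repeats, and 3 of its 6 tested genes, CTNNBIP1 among them, rose with both siRNAs, with a list median of 0.39. CTNNBIP1 encodes ICAT, an inhibitor that keeps β-catenin from TCF factors, and went from 1.32 ± 0.180 FPKM with scrambled siRNA to 3.95 ± 0.222 and 2.93 ± 0.133 under siCyclin K#1 and siCyclin K#2 (SD, n = 3), a log2 fold change of 1.31 over both (SE 0.15, adjusted p = 0.0002, limma). The plakophilins PKP3 and PKP2, which link desmosomal cadherins to desmoplakin, rose by 0.63 (adjusted p = 0.012, limma) and 0.57 (adjusted p = 0.0011, limma). For PKP3 the log2 fold change was 0.40 under siCyclin K#1 and 0.85 under siCyclin K#2. Of 14 other type I and type II cadherins, 4 were tested and 10 were below the filter or not in the files. CDH24 fell by 0.32 (adjusted p = 0.038, limma), from 3.93 ± 0.260 FPKM to 3.28 ± 0.380 and 2.98 ± 0.0937 (SD, n = 3), with overlapping groups. CDH8 rose with both siRNAs together, but its mean was under 1 FPKM in every group. CDH19 was at 0.065 ± 0.0189 FPKM with scrambled siRNA (SD, n = 3), under the filter of 0.1 FPKM. It was tested only through its siCyclin K libraries, with means of 0.539 and 0.188 FPKM, so no rise is read from its test.

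Adherens junction partners had 16 tested genes, of which 7 rose and 1 fell with both siRNAs, 12 rose and 2 fell under siCyclin K#1, and 9 rose and 2 fell under siCyclin K#2. The list medians were 0.24, 0.36 and 0.32. LIMA1, an actin-bundling protein that binds the cadherin and catenin complex, went from 3.24 ± 0.400 FPKM to 11.4 ± 0.357 and 5.13 ± 0.406 under siCyclin K#1 and siCyclin K#2 (SD, n = 3), with a log2 fold change of 1.22 over both (SE 0.33, adjusted p = 0.020, limma). AFDN, the afadin that ties nectins to actin, rose by 0.93 (SE 0.13, adjusted p = 0.00067, limma). NECTIN3, a nectin, rose by 0.61 (adjusted p = 0.0097, limma) and PTPRK, a receptor phosphatase found at junctions, by 0.59 (adjusted p = 0.00035, limma). For NECTIN3 the log2 fold change was 0.80 under siCyclin K#1 and 0.41 under siCyclin K#2. VCL, the vinculin that binds stretched α-catenin, was named after its values were seen: it was at 29.1 FPKM with scrambled siRNA, 40.6 under siCyclin K#1 (log2 fold change 0.46, adjusted p = 0.0098, limma) and 20.2 with siCyclin K#2 (-0.53, adjusted p = 0.0065, limma), opposite directions whose difference was 0.99 (adjusted p = 0.00027, limma).

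Of the 6 tested desmosomal genes, 4 rose with both siRNAs, with a list median of 0.77. PPL encodes periplakin, a plakin of the desmosome and the cornified envelope, and went from 0.237 ± 0.0356 FPKM to 4.64 ± 0.0995 and 2.22 ± 0.155 (SD, n = 3), a log2 fold change of 3.30 (SE 0.31, adjusted p = 5e-05, limma). PERP, a small membrane protein of desmosomes and a p53 target, went from 12.1 ± 0.197 FPKM to 74.2 ± 0.815 and 58.1 ± 1.49 (SD, n = 3), a log2 fold change of 2.43 (SE 0.11, adjusted p = 7.4e-07, limma). EVPL, the envoplakin that pairs with periplakin, rose by 0.94 (adjusted p = 2.2e-05, limma) and DSG2, the desmoglein of simple epithelia, by 0.61 (adjusted p = 0.049, limma). For DSG2 the log2 fold change was 0.97 under siCyclin K#1 and 0.26 under siCyclin K#2. The plakin DSP, which encodes desmoplakin, was low, at 0.499 FPKM with scrambled siRNA, and did not pass the test with both siRNAs (0.13, adjusted p = 0.78, limma). It rose under siCyclin K#1 (0.57, adjusted p = 0.0064, limma), was at -0.32 under siCyclin K#2 (adjusted p = 0.095, limma), and differed between the siRNAs by 0.89 (adjusted p = 0.001, limma). DSC2, a desmocollin, fell by 0.62 under siCyclin K#2 (adjusted p = 0.0049, limma).

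Cadherin turnover and trafficking had 10 tested genes, with a list median of 0.21. CBLL1, the ubiquitin ligase Hakai that acts on E-cadherin, fell by 0.61 with both siRNAs (SE 0.098, adjusted p = 0.0013, limma), from 6.45 ± 0.341 FPKM to 4.14 ± 0.260 and 4.28 ± 0.643 (SD, n = 3). Among the repressors and activators of CDH1, 9 of 12 genes were tested, and 2 rose and 1 fell with both siRNAs, with a list median of 0.11. TCF3, which encodes the E2A proteins, known repressors of CDH1, went from 2.59 ± 0.117 FPKM to 10.9 ± 0.683 and 9.69 ± 0.209 (SD, n = 3), a log2 fold change of 1.95 (SE 0.083, adjusted p = 6e-07, limma). KLF4, an activator of CDH1, rose by 1.12 (SE 0.24, adjusted p = 0.0061, limma), with 1.52 under siCyclin K#1 and 0.72 under siCyclin K#2. ZEB2, another repressor, fell by 0.68 in the fit of both siRNAs together (SE 0.22, adjusted p = 0.047, limma), from 1.65 ± 0.0121 FPKM to 0.813 ± 0.111 and 1.24 ± 0.328 (SD, n = 3). By siRNA, it fell by 0.94 under siCyclin K#1 (adjusted p = 0.0031, limma), and its value of -0.41 under siCyclin K#2 did not pass the test (adjusted p = 0.13, limma). The genes of this list that rose thus have opposite known roles.

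The label of the cells was set against marker lists. Of 6 epithelial markers, KRT8 and KRT18, the keratins of simple epithelia, were at 55.3 and 83.2 FPKM with scrambled siRNA, while EPCAM and KRT19 were at 0.0408 and 0.0578. The mesenchymal list was led by VIM at 271 FPKM, and of the alveolar type II list, ABCA3 was at 6.21 FPKM but SFTPB, SFTPC, NAPSA and NKX2-1 were each under 0.1 in these means. A549 thus showed keratin together with vimentin mRNA, and little of the defining alveolar markers. Endothelial markers, summed, were at 0.102 to 0.140 FPKM in the scrambled libraries, and of the leukocyte list CD68 was at 30.3 FPKM and PTPRC at 0.00444.

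Some of these markers moved beside the cadherins. The epithelial sum was 134 to 153 FPKM with scrambled siRNA, 159 to 186 under siCyclin K#1 and 188 to 193 under siCyclin K#2, led by KRT18 in the scrambled cells, and KRT8 was the 1 of 4 tested markers that rose with both siRNAs (0.80, adjusted p = 0.00038, limma). Of all tested genes, 17.0% were higher and 11.5% lower in that fit, for comparison with this count and the mesenchymal one below. Under siCyclin K#1, where CDH1 rose, KRT18 fell by 0.17 (adjusted p = 0.0091, limma) and CLDN4, a tight junction claudin, by 0.91 (adjusted p = 0.021, limma), and the median of the 4 tested epithelial markers was -0.041. CLDN4 was low, at means of 0.351 FPKM with scrambled siRNA and 0.138 under siCyclin K#1, beside 83.2 and 74.1 for KRT18. The mesenchymal sum was 304 to 321, 343 to 355 and 258 to 270 FPKM, and of 7 tested markers FN1 rose (0.73, adjusted p = 0.0015, limma) and ZEB2 fell in the fit of both siRNAs together, as given above. The lower sum under siCyclin K#2 went with VIM, which fell by 0.38 (adjusted p = 2e-05, limma), while FN1 (0.54, adjusted p = 3.2e-05, limma) and the collagen gene COL1A1 (0.63, adjusted p = 0.00033, limma) rose. Under siCyclin K#1, COL1A1 rose by 2.73 (adjusted p = 5.2e-08, limma), FN1 by 0.93 (adjusted p = 7.1e-07, limma) and TWIST2, a transcription factor, by 0.89 (adjusted p = 0.00027, limma). The fibroblast sum was 0.432 to 0.506 FPKM with scrambled siRNA, 1.82 to 2.91 under siCyclin K#1 and 0.401 to 0.448 under siCyclin K#2, most of it LUM, while DCN and COL1A2 were at 0.0791 and 0.00369 FPKM with siCyclin K#1. Of the alveolar type II list, ABCA3, a lipid transporter, rose by 0.72 with both siRNAs (adjusted p = 0.00035, limma), and the list sum was 5.98 to 6.82 FPKM with scrambled siRNA, 10.9 to 11.5 under siCyclin K#1 and 9.10 to 10.9 under siCyclin K#2. CD68 rose by 0.32 under siCyclin K#2 (adjusted p = 0.00024, limma). The part of these markers in the cadherin and catenin values was not tested.

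Among 11242 genes with a mean of at least 1 FPKM, those whose log2 values were most like CTNNB1 over the 9 libraries included MED28 (Pearson r = 0.893), SNX22 (0.883), TSFM (0.879) and ZNF620 (0.864). Those most like CTNNA2 were FN1 (0.998), FBN1 (0.997), LINC00963 (0.997), WIPF1 (0.996) and UBTD2 (0.996). FN1, the fibronectin gene, was at 28.0, 53.3 and 40.6 FPKM with scrambled siRNA, siCyclin K#1 and siCyclin K#2, and FBN1, the fibrillin gene, at 1.75, 8.18 and 4.68, the same order of groups as CTNNA2. These correlations are a description over libraries that fall into 3 groups, with the closest of many genes picked by its value.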

How the data were processed

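Total RNA of A549 cells was sequenced in pairs of reads by a sequencing company (Illumina HiSeq X), and the authors deposited FPKM per feature, made with StringTie 1.3.3b. The aligner, the annotation release and strandedness are not given in the sources used here. Reads of antisense overlaps (AC034243.1 and LRRTM2 with CTNNA1, AC110015.1 with CDH2, AC099314.1 with CDH1, AC126773.2 with CDH3, AC008067.1 with CTNNA2) may therefore have been counted with their partners. Mean FPKM was 0.105 for AC034243.1, 0.06 for LRRTM2, 0.07 for AC110015.1 and 0.004 for AC126773.2. AC099314.1 and AC008067.1 had no value of their own. Spreadsheet dates stood in place of 22 symbols in some files and were taken from a file without them.

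Groups and replicate numbers came from the labels. FPKM was summed over the rows of a reference gene. A gene was tested where 3 or more libraries reached 0.1 FPKM. The test was limma 3.58.1 (lmFit, eBayes with trend, R 4.3.3) on log2(FPKM + 0.1), with both siRNAs as 2 groups, and each siRNA as 3 groups sharing a spread. p-values were Benjamini-Hochberg adjusted over 21048 genes. The study's thresholds, a fold change over 3 with p under 0.01 before adjustment, were passed by 483 genes for both siRNAs, 983 for siCyclin K#1, 409 for siCyclin K#2 and 322 between the siRNAs. Ratios had exact permutation tests (scipy 1.17.1). A simulation of both siRNAs against scrambled over 21048 genes shifted 200 genes by 2 on the log2 scale. The test found 196 of these 200, and it also called 16 genes that had no shift. Of the members that passed this test, CTNNA2 changed by 2.23, but CTNND1 (0.79), CDH2 (0.85) and CDH4 (1.56) changed by less than 2. Between the siRNAs, 29.4% of tested genes differed. The simulated figures therefore do not give the recovery of smaller changes or of changes that differ between the siRNAs.

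Reads were recovered from FPKM with exon lengths of GENCODE 29: 96.14% to 96.51% of values under 50 reads were whole within 0.05. CTNNA2 and CTNND1, on StringTie loci, were not resolved. Positions are those of the gene records in the files, GRCh38, where they equal those of GENCODE 29 for all 10 members. Transcript sequences and seed matches came from GENCODE 29.

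The members and lists were chosen with earlier results of these data known. Named were the 10 members, CCNK, of each junction list at most 4 genes with the largest change over both siRNAs among those with an adjusted p under 0.05 and a mean of at least 1 FPKM, and the 5 genes most like CTNNB1 and CTNNA2. Some results that these rules name are not reported here. Other named genes (VCL, ARF6, CDH19, CDH8, DSP, DSC2) and markers were chosen after their values were seen. Alternatives were other pseudocounts, filters, scalings, a fit without trend, a replicate block, the highest row of a gene, a fold change over 2, and leaving out each library.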

Additional observations from a re-analysis of the deposited data

Results flagged for a closer look

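For 4 members the response differed between the siRNAs in a direct test, siCyclin K#1 minus siCyclin K#2 on the log2 scale (limma with Benjamini-Hochberg adjustment over all tested genes). JUP differed by 1.40 (adjusted p = 0.0013), at 21.5 against 8.09 FPKM, and CDH1 by 1.15 (adjusted p = 0.0079), at 3.88 against 1.71 FPKM. CTNNA2 differed by 1.13 (adjusted p = 0.00085), at 2.10 against 0.904 FPKM, while rising with each. CTNNAL1 differed by -1.22 (adjusted p = 1.2e-07), at 16.6 against 38.8 FPKM, and was the member that passed the test with each siRNA in opposite directions. In each of the 4 genes all 3 libraries of one siRNA were above all 3 of the other, as in 42.7% of all tested genes counted in either direction. CCNK itself was at 0.809 and 0.844 FPKM with the siRNAs, a difference of -0.056 (adjusted p = 0.73). The cause of these differences was not tested. Dixon's test over the 6 siCyclin K libraries pooled, for 11 genes, marked no library. For genes whose siRNA groups lay apart, such as these 4, the gap between the groups can hide a deviant library, so the test decides nothing there. Groups of 3 libraries, the scrambled ones included, were not searched.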

How the results depend on the processing

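Genes past a fold change over 3 and p under 0.01 with both siRNAs, siCyclin K#1, siCyclin K#2 and between the siRNAs numbered 154, 336, 117 and 75 with a pseudocount of 0.5, 82, 200, 70 and 57 with 1, 245, 474, 186 and 113 with a mean of at least 1 FPKM, and 1711, 2813, 1521 and 1129 at a fold change over 2. Leaving out single libraries gave 422 to 524, 934 to 991, 401 to 451 and 292 to 352. Members with an adjusted p under 0.05 then numbered 3 to 4, 7, 4 to 5 and 4 to 5.

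Signs turned only for values that did not pass the test. Median-ratio rescaling gave -0.027 for CTNNA1 with both siRNAs, -0.023 for CDH1 with siCyclin K#2 (-0.047 under quantile normalization) and -0.040 for CTNNB1 between the siRNAs, and a pseudocount of 1 gave 0.00027 for CDH4 between them. Without single libraries, CTNNA1 ranged from -0.015 to 0.14 with both siRNAs and -0.11 to 0.046 with siCyclin K#1, JUP from -0.17 to 0.29 and CDH1 from -0.19 to 0.25 with siCyclin K#2, and CDH4 from -0.18 to 0.30 between the siRNAs. CDH1 with siCyclin K#2 was -0.0074 without scrambled library 1, -0.037 without 2 and -0.19 without siCyclin K#2 library 1. CDH4 was 0.30 without siCyclin K#1 library 1, and 0.069 and 0.081 without siCyclin K#2 libraries 1 and 3.

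The replicate numbers did not pair the libraries (correlations of deviations -0.0711 to 0.0379 over 11243 genes). With the replicate block 4773, 9062, 6947 and 5680 genes had an adjusted p under 0.05 and 459, 974, 412 and 314 passed the fold and p thresholds, with 4, 7, 5 and 4 members. CDH3 was left out of these fits by the filter on low values.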
